A study of Saccharomyces cerevisiae with 4 samples.

Results

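The 10 genes described here encode the major cytosolic chaperones of budding yeast. They are the 4 SSA and 2 SSB genes for Hsp70, HSP82 and HSC82 for Hsp90, and SSE1 and SSE2 for Hsp110. They were taken by systematic name from a table of 7126 features, and all 10 were present and passed the filter on low values. RNA was measured in 4 libraries of ribosome-depleted total RNA from whole cells of Saccharomyces cerevisiae, 2 from dbp2null and 2 from wild type. The dbp2null cells (strain BTY115, MATa) carry a KanMx replacement of DBP2, the gene of a DEAD-box RNA helicase, together with ura3Δ0, leu2Δ0, his3Δ0, TRP1, met- and lysΔ. Wild-type cells are also MATa, with his3Δ1, leu2Δ0, met15Δ0 and ura3Δ0. Both lack URA3, LEU2 and HIS3 function by label, and both were grown in rich glucose medium at 30 °C to an optical density of about 0.4. The lysine marker, and the methionine marker as written, differ between the strains, so the loss of DBP2 and the strain background cannot be told apart. The comparison asks how far RNA levels of these chaperones differ in cells without Dbp2, and the second library of each genotype is, by the design text, a biological replicate.

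Hsp70 proteins bind short hydrophobic stretches of unfolded protein and release them in a cycle of ATP hydrolysis that Hsp40 partners start and exchange factors end. The Ssa proteins are the general cytosolic Hsp70s, the Ssb proteins act on nascent chains at the ribosome, Hsp110 proteins exchange the nucleotide of Hsp70, and Hsp90 receives partly folded clients such as kinases from Hsp70. In yeast the families hold both constitutive copies (SSA2, SSB1, SSB2, HSC82, SSE1) and stress-induced copies (SSA3, SSA4, SSE2), while SSA1 and HSP82 are expressed in growing cells and induced further by heat. The heat shock factor Hsf1 binds inverted repeats of the unit GAA, and Msn2 and Msn4 bind the stress response element AGGGG.

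Upstream sequences were searched for exact Hsf1-type repeats. The 300 bases from 400 to 101 before each start codon were read from the R64 assembly, the RefSeq form of the sacCer3 build, and searched for GAANNTTC and TTCNNGAA, which are each their own reverse complement. At least 1 match was present for SSA1, SSA2, SSA4, HSP82, HSC82, SSE1 and SSE2, against 23.6% of the windows of 6001 nuclear protein-coding genes. Windows of SSA3, SSB1 and SSB2 held no match. Only exact matches in this window were sought, so this does not show that these genes lack such a site. The longer forms TTCNNGAANNTTC or GAANNTTCNNGAA, which contain the shorter ones, were found for SSA1, SSA2 and SSE1, against 1.1% of windows. AGGGG or its reverse complement CCCCT was found for SSA1, SSA4, HSP82 and SSE2, against 23.5% of windows. A match is a description of letters and not a bound site. The first match of each gene, with the long form preferred, is shown with 12 flanking bases on each side where the window allows, 5′ to 3′ on the gene's strand, with the GAA and TTC units of the repeat in capitals.
SSA1 (chrI:141766-141807, minus strand): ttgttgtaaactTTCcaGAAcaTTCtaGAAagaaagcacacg
SSA2 (chrXII:97694-97730, minus strand): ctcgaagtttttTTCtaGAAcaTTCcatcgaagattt
SSE1 (chrXVI:352437-352473, minus strand): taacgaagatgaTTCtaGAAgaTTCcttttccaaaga
HSP82 (chrXVI:98841-98872, minus strand): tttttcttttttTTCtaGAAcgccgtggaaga
HSC82 (chrXIII:632126-632157, plus strand): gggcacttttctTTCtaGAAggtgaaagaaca
SSA4 (chrV:364324-364355, plus strand): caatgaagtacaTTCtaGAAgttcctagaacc
SSE2 (chrII:576341-576372, minus strand): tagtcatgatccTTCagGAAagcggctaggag

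Near-identical copies limit what can be said of single genes. The coding sequences of SSB1 and SSB2 are identical at 97.4% of aligned bases, with a longest shared run of 563 bases, and those of SSA1 and SSA2 at 96.4%, with a run of 383 bases. HSP82 and HSC82 share 91.7% of bases with a longest run of 113. Of all stretches of 50 bases in the first gene of each pair, 43.2% also occur in SSB2, 57.9% in SSA2 and 6.39% in HSC82. None of SSE1 occurs in SSE2, which are 71.8% identical, and SSA3 and SSA4 are at most 76.6% identical to each other or to SSA1 and SSA2. How the authors divided reads between copies is not given in the sources used here, so the split within SSA1 and SSA2 and within SSB1 and SSB2 is uncertain, and family sums are given as well. The aligned 60 bases at the middle of 2 pairs show the contrast, with bases that differ in capitals.
SSA1 (chrI:140438-140497, minus strand): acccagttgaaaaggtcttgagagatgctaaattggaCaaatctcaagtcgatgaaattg
SSA2 (chrXII:96492-96551, minus strand): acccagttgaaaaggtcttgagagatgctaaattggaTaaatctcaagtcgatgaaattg
SSE1 (chrXVI:351205-351264, minus strand): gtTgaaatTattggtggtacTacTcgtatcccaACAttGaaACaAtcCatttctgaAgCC
SSE2 (chrII:574926-574985, minus strand): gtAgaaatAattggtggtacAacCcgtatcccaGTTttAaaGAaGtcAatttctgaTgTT

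Values are FPKM, a measure per length of feature and per library, so levels can be compared between genes. DBP2 itself read 2.90 and 1.03 FPKM in dbp2null, against 213 and 199 FPKM in wild type (limma log2 fold change -6.20, adjusted p = 0.0225, SE 0.35), although that call ended without either wild-type library and with a pseudocount of 0.1 (largest adjusted p = 0.10). FPKM summed to 5.01e+07 and 3.37e+06 in the first and the second dbp2null library, against 5.29e+07 and 3.22e+07 in wild type, so dbp2null replicate 2 stands apart in its total. Nuclear protein-coding features alone summed to 2.30e+06 and 6.82e+05 in dbp2null against 2.19e+06 and 2.24e+06 in wild type, while the library medians were 38.1 and 37.3 FPKM in dbp2null against 30.0 and 27.1 FPKM in wild type. In all libraries together, fold changes ran with level. Nuclear protein-coding features with a mean of 20 to 40 FPKM had a median log2 fold change of 0.51, those of 80 to 160 FPKM one of -0.40 and those of 400 to 800 FPKM one of -1.06. Each member is therefore set beside features of its own range. These narrower ranges were chosen after the values were seen.

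The chaperone genes divided by level and by copy type. The 7 abundant genes SSA1, SSA2, SSB1, SSB2, HSP82, HSC82 and SSE1 all read lower in dbp2null, by log2 fold changes between -2.44 and -1.14. The 3 weakly expressed stress-induced copies SSA3, SSA4 and SSE2 all read higher, by 1.02 to 1.39. Of the 16 other settings tried, only the scalings could turn a direction. Filters, replicate blocks and the trend of variance leave a fold change as it is. With non-overlapping libraries, neither another pseudocount nor leaving out a library can turn its sign. Direction held for 9 of 10 genes with median centring, quantile normalization and protein-coding rescaling. That of SSE1 turned with quantile normalization only (0.48). That scaling brought the abundant genes to between -0.94 and 0.48 and the other 3 to between 0.47 and 1.23. Rescaling to protein-coding features brought them to between -1.61 and -0.31 and between 1.82 and 2.19, and at the same time moved the median of all tested features to 1.08. The libraries of the genotypes did not overlap in any of the 10 genes. This was so for 49.8% of the 6781 tested features with dbp2null higher and for 20.7% with dbp2null lower. Shares were larger among nuclear protein-coding features of the members' own levels. With dbp2null lower they were 49.2% for 80 to 160 FPKM, 60.2% for 400 to 800 FPKM and 58.3% for 800 to 1600 FPKM. With dbp2null higher the share was 72.8% for 20 to 40 FPKM. No chaperone gene passed the test, limma with Benjamini-Hochberg adjustment over all tested features, at an adjusted p below 0.05, and the adjusted p-values lay between 0.0551 and 0.188. In the same fit 9 of the 10 had an unadjusted p below 0.05, all but SSE1, beside 37.9% of all tested features. Such features were 32.5% of those tested with dbp2null higher and 5.41% with dbp2null lower. Among all tested features 0.973% were called higher and 0.221% lower, a split of 66 and 15 that became 3 and 10 with median centring, 1 and 4 with quantile normalization and 48 and 52 with protein-coding rescaling. The median log2 fold change of the 10 was -1.47, beside 0.28 over all tested features. In the ranges of level that hold members, medians ran from 0.51 for 20 to 40 FPKM to -1.17 for 800 to 1600 FPKM.

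The absence of calls depended on single libraries and on which features entered the fit. Without dbp2null replicate 1, 9 of 10 genes were called, all but SSA4, beside 37% of all tested features. Without dbp2null replicate 2, SSA1, SSA2 and HSC82 were called, beside 1.33% of features, and the direction was unchanged in both cases. Among features of at least 300 bases, 9 were called, all but SSE1, beside 36.9% of features. Among features above 0 in every library SSA3, SSA4, SSE2 and HSP82 were called, beside 18.3%. The same 4 genes were called with crossed replicate numbers as a block, beside 39.3%. These 3 settings were chosen after the data were seen. A pseudocount of 5 called SSA3 and SSA4, beside 6.27%. No member was called without either wild-type library, with the labelled replicate number as a block or under any other scaling. For single values, an exact permutation of 2 against 2 libraries has 0.333 as its smallest p.

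**Figure D1:**
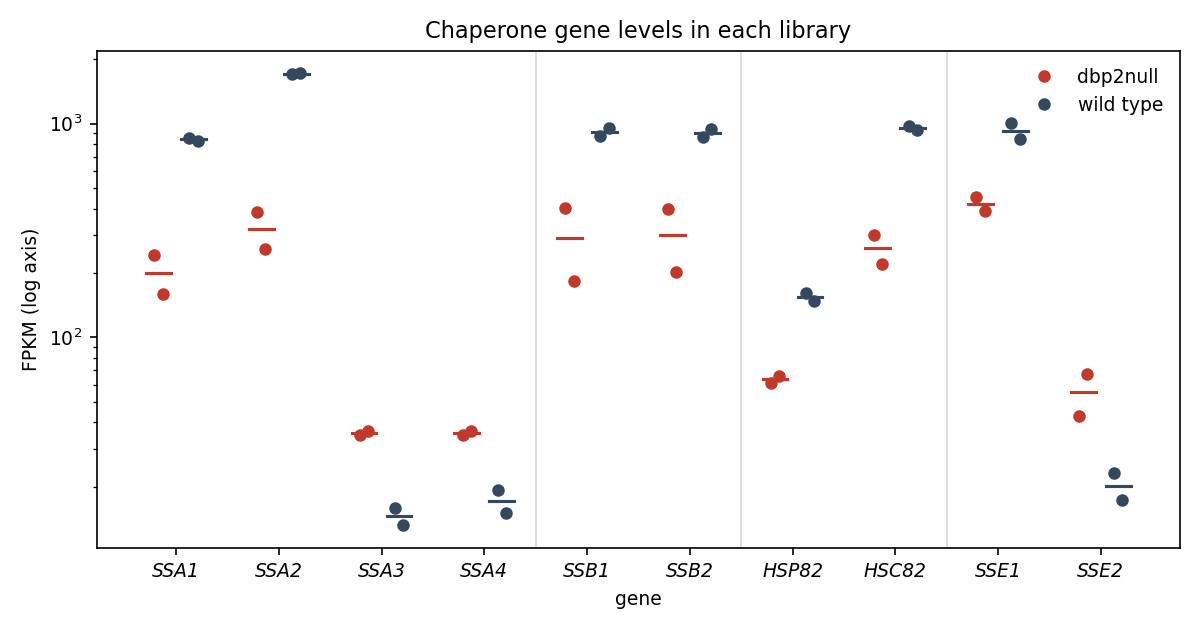
FPKM of the 10 chaperone genes on a log axis, with dbp2null on the left and wild type on the right of each gene; points are libraries and lines are means of 2. The dbp2null points lie below the wild-type points for SSA1, SSA2, SSB1, SSB2, HSP82, HSC82 and SSE1 and above them for SSA3, SSA4 and SSE2.

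SSA2 (YLL024C, chromosome XII, 95566 to 97485), the main constitutive cytosolic Hsp70 gene, had the largest log2 fold change of the 10 in size, though not with quantile normalization (-0.74) or protein-coding rescaling (-1.61, beside 2.19 for SSE2). It read 385 and 260 FPKM in dbp2null, against 1712 and 1719 FPKM in wild type. The dbp2null libraries lay far below the wild-type libraries and far apart from each other, while the wild-type pair was nearly equal. Means were 322 ± 88.0 FPKM in dbp2null and 1715 ± 4.54 FPKM in wild type (SD, n = 2 each), a 5.32-fold lower mean (log2 fold change -2.44, SE 0.58, limma adjusted p = 0.0681). Among the 72 protein-coding features with a mean of 800 to 1600 FPKM, 1 had a more negative fold change, and their median was -1.17. SSA1 (YAL005C, chromosome I, 139503 to 141431), its heat-inducible near-copy, read 242 and 160 FPKM in dbp2null, against 861 and 830 FPKM in wild type (log2 fold change -2.10, SE 0.48, adjusted p = 0.0672). Of the 103 features between 400 and 800 FPKM, 11 lay lower than SSA1. Together these genes carried most of the Ssa FPKM in both genotypes.

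The other Ssa copies showed the opposite pattern from a low level. SSA3 (YBL075C, chromosome II, 84499 to 86448) read 34.8 and 36.4 FPKM in dbp2null, against 15.9 and 13.2 FPKM in wild type (log2 fold change 1.24, SE 0.18, adjusted p = 0.0551). SSA4 (YER103W, chromosome V, 364589 to 366517) read 34.8 and 36.6 FPKM in dbp2null, against 19.3 and 15.1 FPKM in wild type (log2 fold change 1.02, SE 0.19, adjusted p = 0.0585). Both dbp2null libraries were high and close together for both genes. These stress-induced Hsp70 genes, little expressed in unstressed cells, stood near the library median in dbp2null, at percentiles 46.1 and 46.0 for SSA3 and 46.1 and 46.5 for SSA4 among nuclear protein-coding features. In wild type SSA3 stood at percentiles 25.6 and 25.5 and SSA4 at 33.2 and 29.8. Most features of this level also read higher in dbp2null, 87% of the 1930 with a mean of 20 to 40 FPKM. Of these, 11.5% had a larger fold change than SSA3 and 16.7% a larger one than SSA4.

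The ribosome-bound Hsp70 genes read alike throughout, though the split of shared reads between them is uncertain. SSB1 (YDL229W, chromosome IV, 44065 to 45906) had 402 and 184 FPKM in dbp2null, against 874 and 956 FPKM in wild type. SSB2 (YNL209W, chromosome XIV, 252059 to 253900) had 399 and 203 FPKM in dbp2null, against 865 and 940 FPKM in wild type. Both genes were lower in dbp2null replicate 2 than in replicate 1 by about the same factor, a wider gap than for any other member. Their log2 fold changes were -1.74 (SE 0.60, limma adjusted p = 0.112) and -1.66 (SE 0.58, adjusted p = 0.113). They became -1.18 and -1.17 without dbp2null replicate 2 and -2.31 and -2.14 without replicate 1. Of the 103 features between 400 and 800 FPKM, 18 lay lower than SSB1 and 23 lower than SSB2. The dubious reading frame YDL228C, which overlaps SSB1 on the other strand, read 240 and 157 FPKM in dbp2null, against 741 and 534 FPKM in wild type. YAL004W, which overlaps SSA1, is listed at 0 in all 4 libraries. Whether the authors counted by strand is not given in the sources used here, so reads of SSB1 and YDL228C cannot be told apart.

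Both Hsp90 genes read lower in dbp2null. HSC82 (YMR186W, chromosome XIII, 632355 to 634472), the constitutive copy, read 302 and 221 FPKM in dbp2null, against 973 and 936 FPKM in wild type (log2 fold change -1.88, SE 0.50, adjusted p = 0.0755). HSP82 (YPL240C, chromosome XVI, 96496 to 98625), the heat-inducible copy, had means of 63.5 ± 3.46 FPKM in dbp2null and 155 ± 9.81 FPKM in wild type (SD, n = 2 each; log2 fold change -1.27, SE 0.26, adjusted p = 0.0612). Its dbp2null libraries differed little, at 61.1 and 66.0 FPKM, and lay well below the wild-type values of 162 and 148 FPKM. Its fold change was smaller than that of HSC82, an order that turned with quantile normalization (-0.91 for HSP82 and -0.35 for HSC82), and it lay further out in its own range. Of the 661 features with a mean of 80 to 160 FPKM, 4.24% lay lower than HSP82, whereas 13.6% of the 103 features of 400 to 800 FPKM lay lower than HSC82.

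Hsp110 genes differed in direction, except with quantile normalization. SSE1 (YPL106C, chromosome XVI, 350194 to 352275), the main exchange factor for cytosolic Hsp70, read 452 and 390 FPKM in dbp2null, against 1009 and 845 FPKM in wild type (log2 fold change -1.14, SE 0.53, adjusted p = 0.188). Its fold change was the ordinary one for its level, with 44.7% of the 103 features of 400 to 800 FPKM lower. SSE2 (YBR169C, chromosome II, 573915 to 575996), the stress-induced copy, read 43.0 and 67.4 FPKM in dbp2null, against 23.1 and 17.4 FPKM in wild type (log2 fold change 1.39, SE 0.29, adjusted p = 0.062). SSE2 was highest in dbp2null replicate 2, the library in which SSA1, SSA2, SSB1, SSB2, HSC82 and SSE1 were lower than in replicate 1. Its percentiles were 55.5 and 78.5 in dbp2null and 39.4 and 34.3 in wild type, and 9.17% of the 1930 features of 20 to 40 FPKM had a larger fold change.

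**Figure D2:**
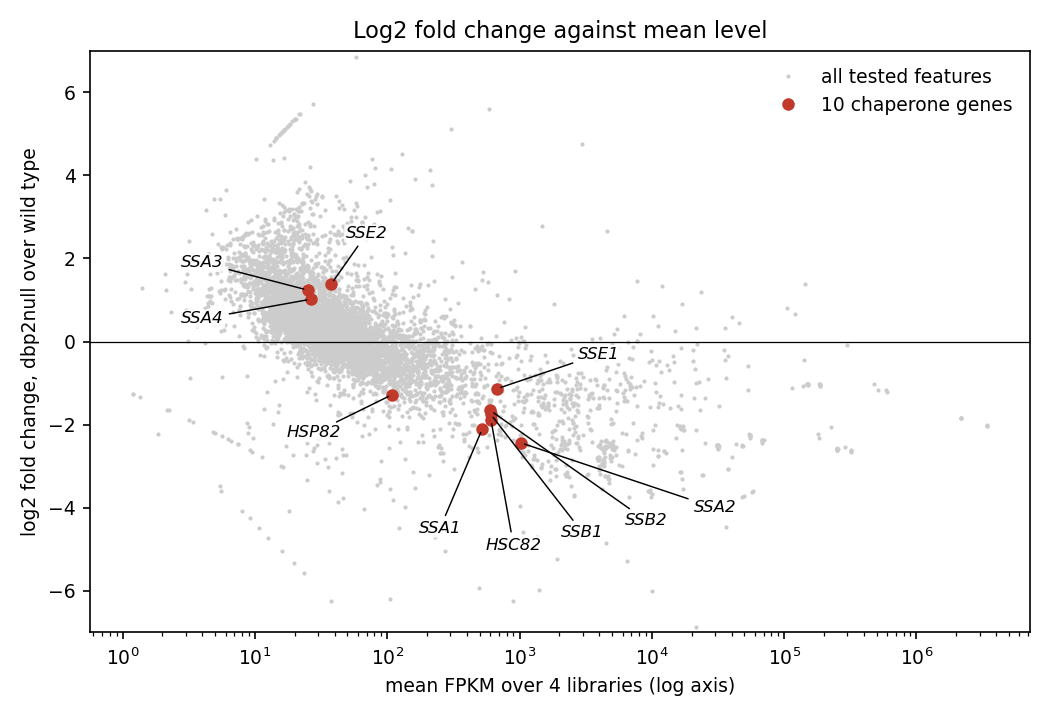
Log2 fold change of dbp2null over wild type against the mean FPKM of the 4 libraries (log axis) for 6781 tested features in grey and the 10 chaperone genes in red, with 7 features beyond the axis limits of 7. The cloud falls with level. The chaperone genes run the same way, with SSA2 at -2.44 and SSE2 at 1.39 as their extremes. Most of them lie further out than most features of their own range of level. SSE1, at -1.14, lies near its range median of -1.06.

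The order of levels differed between the genotypes. In dbp2null SSE1 had the highest mean, 421 ± 43.5 FPKM, and its libraries, at 452 and 390 FPKM, lay just above those of SSA2 (322 ± 88.0) but overlapped with those of the SSB genes. SSB2 (301 ± 138), SSB1 (293 ± 154), HSC82 (261 ± 57.5) and SSA1 (201 ± 58.2 FPKM) followed, with ranges that overlap from one neighbour to the next (SD, n = 2 each). In wild type SSA2 stood alone at the top at 1715 ± 4.54 FPKM. HSC82 (954 ± 25.9), SSE1 (927 ± 115), SSB1 (915 ± 58.2) and SSB2 (902 ± 53.2) came next with overlapping neighbours. SSA1 (845 ± 22.6 FPKM) followed, just below the libraries of SSB2 but overlapping with those of SSE1. At the low end HSP82 and SSE2 overlapped in dbp2null (63.5 ± 3.46 and 55.2 ± 17.3 FPKM), whereas in wild type HSP82 stood at 155 ± 9.81 FPKM and SSE2 at 20.2 ± 4.04 FPKM. SSA4 and SSA3 had the lowest means in both genotypes and overlapped with each other in both. In wild type SSA4 (19.3 and 15.1 FPKM) also overlapped with SSE2 (23.1 and 17.4 FPKM).

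Family sums were lower in dbp2null for all 4 families. They do not change with a different split of shared reads between copies, but would change if such reads were left out or counted in both. The Ssa sum was 697 and 493 FPKM in dbp2null, against 2609 and 2576 FPKM in wild type, a 4.36-fold lower mean and a log2 ratio of -2.15. The Ssb sum was 801 and 387 FPKM in dbp2null, against 1739 and 1896 FPKM in wild type (log2 ratio -1.70). The Hsp90 sum was 363 and 287 FPKM in dbp2null, against 1135 and 1084 FPKM in wild type (-1.78). Hsp110 differed least, with 495 and 457 FPKM in dbp2null, against 1032 and 863 FPKM in wild type (-0.99). No family's libraries overlapped between genotypes, and each exact two-sided permutation test gave p = 0.333, the smallest it can give. With quantile normalization, added after the data were seen, the Hsp110 log2 ratio turned to 0.53, and the other 3 were -0.72 (Ssa), -0.36 (Ssb) and -0.43 (Hsp90), each smaller than its SD between replicates. With protein-coding rescaling the direction held, at -0.17 for Hsp110 and -1.32 for Ssa. In that rescaling the 10 largest features held 45% and 16.8% of the protein-coding FPKM in dbp2null, against 39% and 37.1% in wild type.

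**Figure D3:**
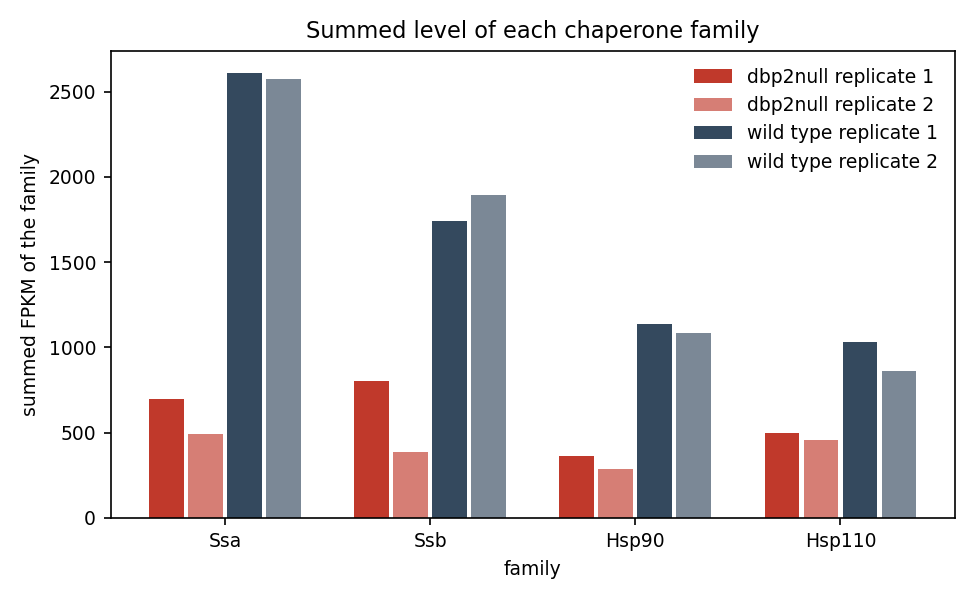
Summed FPKM of the Ssa, Ssb, Hsp90 and Hsp110 genes in each of the 4 libraries, with the dbp2null bars (red) left of the wild-type bars (grey). Every dbp2null bar is below both wild-type bars of its family, and the Ssa sum of 697 and 493 FPKM lies furthest below its wild-type values of 2609 and 2576 FPKM.

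The make-up of the set shifted between the genotypes, a comparison within each library that scaling by 1 factor per library leaves unchanged. Ssa genes supplied 29.6% and 30.4% of the summed FPKM of the 10 in dbp2null, against 40.1% and 40.1% in wild type. Hsp110 supplied 21% and 28.2% in dbp2null, against 15.8% and 13.4% in wild type, and the Hsp110 to Ssa ratio was 0.71 and 0.928 in dbp2null, against 0.395 and 0.335 in wild type. The stress-induced copies SSA3, SSA4 and SSE2 together made up 4.78% and 8.64% in dbp2null and 0.895% and 0.712% in wild type. The Hsp90 share was nearly level, at 15.4% and 17.6% in dbp2null and 17.4% and 16.9% in wild type. Quantile normalization, which does change shares, kept the direction for Ssa (30% and 27.7% in dbp2null, against 38.6% and 38.7% in wild type), for Hsp110 (20.8% and 33.5% against 16.1% and 13.8%) and for the stress-induced copies (5.21% and 2.5% against 1.64% and 1.51%).

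Ratios of the heat-inducible to the constitutive copy were higher in dbp2null in the FPKM as deposited. SSA4 per SSA2 was 0.0905 and 0.141 in dbp2null, against 0.0113 and 0.0088 in wild type, a difference in log2 ratio of 3.50 with an SD between replicates of 0.37. SSE2 per SSE1 was 0.0953 and 0.173 in dbp2null, against 0.0229 and 0.0205 in wild type (2.57, SD 0.44). HSP82 per HSC82 was 0.202 and 0.299 in dbp2null, against 0.167 and 0.158 in wild type (0.60, SD 0.28). SSA1 per SSA2 was 0.63 and 0.615 in dbp2null, against 0.503 and 0.483 in wild type (0.34, SD 0.03), a ratio that the sharing of reads between these copies touches. SSB1 per SSB2, a pair of constitutive copies, was 1.01 and 0.904 in dbp2null, against 1.01 and 1.02 in wild type (-0.09, SD 0.08). The sharing of reads touches this ratio as well, as these copies are identical at 97.4% of aligned bases. It therefore cannot serve as an unaffected contrast to the other pairs. The genotypes did not overlap in any of the 5 ratios, and the exact permutation p was 0.333 for each, its minimum. With quantile normalization the differences for HSP82 to HSC82 and SSA1 to SSA2 turned to -0.57 and -0.20, while those for SSA4 to SSA2 and SSE2 to SSE1 were 1.23 and 0.77. The HSP82 to HSC82 difference was 0.32 without dbp2null replicate 2, and that of SSB1 to SSB2 was -0.01. Weakly expressed features read higher and abundant ones lower throughout the table, and the part of this slope in the ratios of unequal pairs was not tested.

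**Figure D4:**
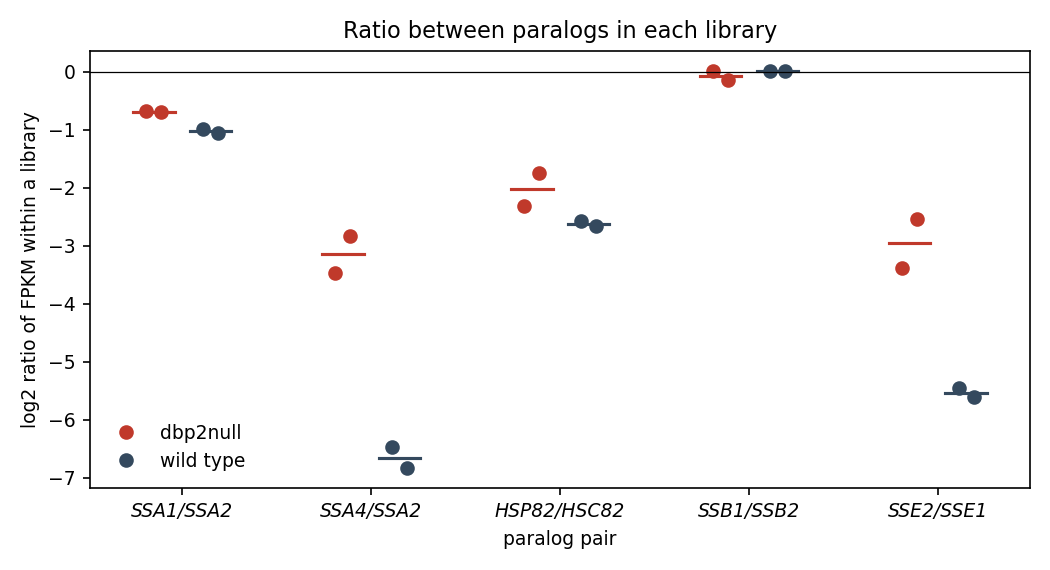
Log2 ratio of FPKM between paralogs within each library, with dbp2null left of wild type in each pair; points are libraries and lines are means of 2. The ratio of SSA4 to SSA2 averages -3.15 in dbp2null and -6.65 in wild type. That of SSB1 to SSB2, near-identical copies whose reads may be shared, stays near 0 in both.

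Genes that work with these chaperones were counted from lists of known partners. Of 13 Hsp40 and ribosome-associated genes, 0 passed the limma test and 5 had an unadjusted p below 0.05, beside 37.9% of all tested features. Of these 5, YDJ1, SIS1 and SSZ1 read lower, beside 5.41% of all tested features, and APJ1 and JJJ1 higher, beside 32.5%. In this list 7 had positive and 6 negative log2 fold changes, and the median was 0.07. All 4 with a mean of 100 FPKM or more read lower in dbp2null, as did 81% of protein-coding features of 100 to 1000 FPKM. Of the other 9, 7 read higher, as did 76.6% of protein-coding features of 10 to 100 FPKM. YDJ1, the main Hsp40 of Ssa, read 208 and 144 FPKM in dbp2null, against 407 and 380 FPKM in wild type, and SSZ1, part of the ribosome-associated complex that stimulates Ssb, 155 and 109 FPKM in dbp2null, against 352 and 362 FPKM in wild type. Weakly expressed Hsp40 genes such as JJJ1 (25.3 and 39.8 FPKM in dbp2null, against 21.0 and 13.7 FPKM in wild type) and APJ1 (log2 fold change 0.80, adjusted p = 0.0778) read higher. The exchange factor genes FES1 and SNL1 had log2 fold changes of -0.40 and 0.05 (adjusted p = 0.344 and 0.938).

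Of 12 Hsp90 co-chaperone genes, 0 were called by limma and 5 had an unadjusted p below 0.05, beside 37.9% of all tested features. Of these 5, STI1, CDC37, CPR6 and PPT1 read lower, beside 5.41% of all tested features, and PIH1 higher, beside 32.5%. The median log2 fold change of the 12 was -0.51. The 6 genes of 100 to 1000 FPKM all had negative values, beside 81% of protein-coding features of that level, and so did 4 of the 6 of 10 to 100 FPKM, beside 23.4%. STI1, which links Hsp70 to Hsp90, read 93.8 and 86.0 FPKM in dbp2null, against 268 and 214 FPKM in wild type (log2 fold change -1.41, SE 0.32, adjusted p = 0.0655). HCH1, a gene related to the Hsp90 ATPase activator AHA1, read 444 and 421 FPKM in dbp2null, against 1025 and 893 FPKM in wild type (log2 fold change -1.14, near the median of -1.06 for 400 to 800 FPKM), whereas AHA1 itself differed little, with 171 and 161 FPKM in dbp2null, against 181 and 178 FPKM in wild type. PIH1, of a complex that works with Hsp90, was 1 of 2 genes of the list with a positive value. It read 40.6 and 41.3 FPKM in dbp2null, against 28.2 and 22.1 FPKM in wild type. Its log2 fold change was 0.69, beside a median of 0.51 for 20 to 40 FPKM.

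Genes known to depend on Hsf1 did not read one way and divided largely by level. All 10 of 100 to 1000 FPKM read lower in dbp2null, beside 81% of protein-coding features of that level. Of the 8 of 10 to 100 FPKM, 1 read lower, beside 23.4%. Of 19, which include SSA1, SSA2, HSP82 and HSC82, 12 read lower and 7 higher. By limma 0 were called and 11 had an unadjusted p below 0.05, beside 37.9% of all tested features. These 11 include the 4 chaperone genes just named, and YDJ1, SIS1, STI1 and CPR6 of the lists above. Those genes read lower, beside 5.41% of all tested features, and the rest of the 11 higher, beside 32.5%. The 15 outside the chaperone set were 8 lower and 7 higher, with a median of -0.11. HSP42, a small heat shock protein gene, read 73.6 and 78.3 FPKM in dbp2null, against 27.3 and 20.1 FPKM in wild type (log2 fold change 1.66, SE 0.23, adjusted p = 0.0551). HSP104, for the disaggregase that works with Ssa and Hsp40, read 67.6 and 102 FPKM in dbp2null, against 86.7 and 71.6 FPKM in wild type, so its groups overlap. HSP26, another small heat shock protein gene and not in that list, rose (298 and 231 FPKM in dbp2null, against 46.0 and 36.1 FPKM in wild type; log2 fold change 2.66, SE 0.31, limma adjusted p = 0.0481). That call held in 7 of 16 other settings, among them protein-coding rescaling and those chosen after the data were seen. Settings that ended it include median centring and quantile normalization. It also ended without dbp2null replicate 2 and without either wild-type library.

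Of 5 regulator genes, with means of 18.2 to 29.1 FPKM, 1 was called, and all 5 had positive log2 fold changes, as did 87% of protein-coding features of 20 to 40 FPKM. HSF1 showed no separation, with 29.0 and 32.0 FPKM in dbp2null, against 29.6 and 20.9 FPKM in wild type. MSN4, for a stress transcription factor induced by stress itself, rose to 46.6 and 44.9 FPKM in dbp2null, against 13.7 and 11.1 FPKM in wild type (log2 fold change 1.81, SE 0.18, limma adjusted p = 0.0458). The MSN4 call held in 6 of 16 other settings, among them those chosen after the data were seen. Settings that ended it include median centring, quantile normalization and protein-coding rescaling. It also ended without dbp2null replicate 2 and without either wild-type library. Its relative MSN2 read 29.9 and 34.5 FPKM in dbp2null, against 20.5 and 16.3 FPKM in wild type (log2 fold change 0.78, adjusted p = 0.0719). The stress-related kinase genes YAK1 and RIM15 had log2 fold changes of 1.15 and 1.21 (adjusted p = 0.0585 and 0.0648). Hsp70 genes of other compartments divided by level as the cytosolic ones did. SSC1, the main mitochondrial Hsp70 gene, read 88.0 and 75.6 FPKM in dbp2null, against 264 and 233 FPKM in wild type, and KAR2, that of the endoplasmic reticulum, 147 and 98.7 FPKM in dbp2null, against 229 and 210 FPKM in wild type. The weakly expressed mitochondrial ECM10 read 22.3 and 26.6 FPKM in dbp2null, against 11.9 and 9.64 FPKM in wild type, with SSQ1 and LHS1 at log2 fold changes of 0.52 and 0.26. Of these 5, limma called 0, and 2 had an unadjusted p below 0.05, beside 37.9% of all tested features.

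**Figure D5:**
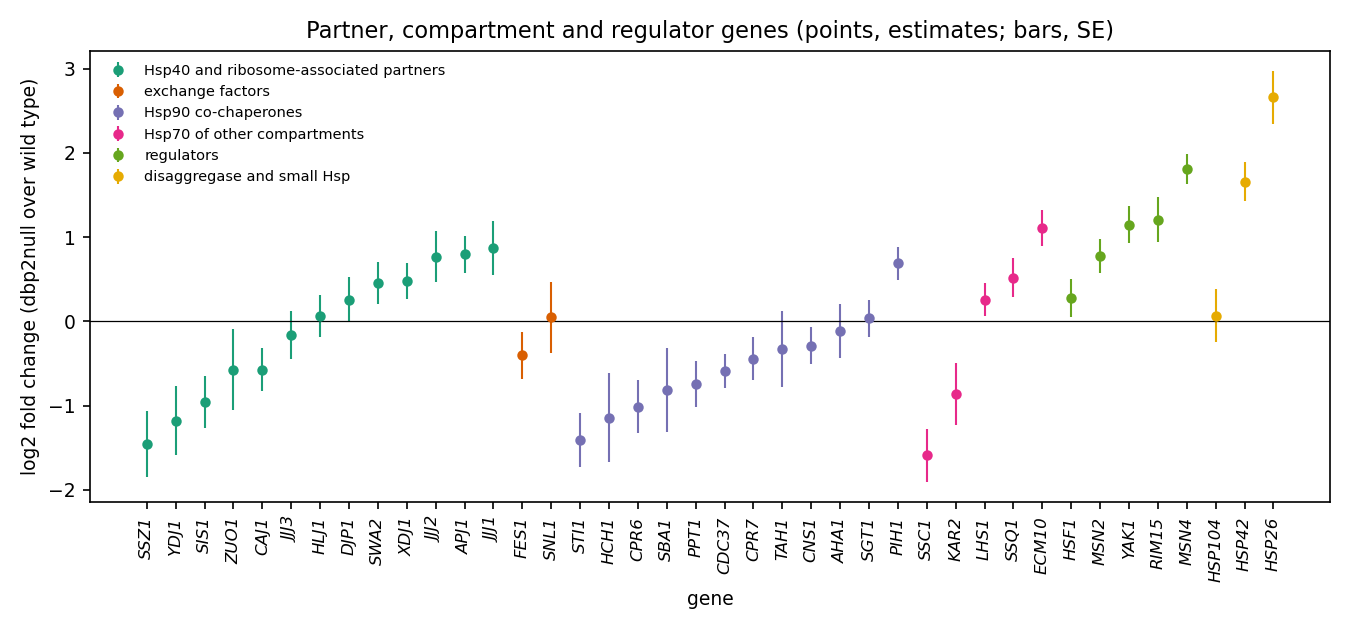
Log2 fold change of dbp2null over wild type for 40 partner, compartment and regulator genes, coloured by list and sorted within it; points are limma estimates and bars are 1 SE. Most Hsp90 co-chaperone genes lie below 0, all regulators above 0, and HSP26 at 2.66 is the highest point.

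Profiles across the 4 libraries were also compared with those of genes outside the set. The 10 members were left out of this search, so they could not be named as nearest. Among 5739 protein-coding features averaging 10 FPKM or more, the smallest Euclidean distances to the mean centred log2 profile of SSA2, SSB1, SSB2, HSC82 and SSE1 were those of PGI1 (0.0419), BAT1 (0.078) and ALD5 (0.109). PGI1, for the glycolytic enzyme phosphoglucose isomerase, read 277 and 175 FPKM in dbp2null, against 731 and 735 FPKM in wild type. The nearest to SSA3, SSA4 and SSE2 were RMD6 (0.0313), NCW2 (0.0337) and SLI1 (0.0483), with RMD6 at 24.9 and 29.3 FPKM in dbp2null, against 12.3 and 9.79 FPKM in wild type. With 4 libraries many features have close profiles, so these names describe likeness only.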

How the data were processed

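Ribosome-depleted total RNA of 2 dbp2null and 2 wild-type yeast cultures was sequenced. The authors deposited FPKM, 1 column per library, in a table without counts. Per the submitters' processing notes, CASAVA, TopHat, Cufflinks and edgeR were used with sacCer3; the sources used here give neither versions nor roles. The library kit was changed to retain short RNAs, per the labels' protocols. After 3 blank rows were removed, 7126 features remained, of which 6169 matched RefSeq R64 names and 340 are listed at 0 in all libraries. Whole-read steps were sought in 500 low values per library. At most 16.2% lay within 0.05 of a multiple of the best step, against 10% by chance, so no reads were recovered, depth is unknown and no counting interval is given.

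The 6781 features averaging 1 FPKM or more were analysed as log2(FPKM + 1) in R 4.3.3 by limma 3.58.1, using a two-sided test, a trend of variance with mean and genotype as the only term. Benjamini-Hochberg adjustment ran over all tested features, and an adjusted p below 0.05 is called. The scale understates changes of weakly expressed genes. The fit was tested on simulated data. Family sums and paralog ratios used FPKM without a pseudocount and exact permutation over libraries. Ranges of level use the mean of the 4 libraries. Sequences were read from RefSeq R64 with Biopython 1.88, without protein sequences. The named genes are the 10 members, DBP2, the called genes of each list and all genes of lists of 5 or fewer. Each list's 2 largest rises and falls among non-overlapping genes with a mean of at least 10 FPKM are also named. So are the 3 most alike profiles outside the 10 members. AHA1, SIS1, CDC37, CPR6, PPT1 and the overlapping reading frames were added after their values were seen. Members and lists were chosen with earlier results of these data known. The other settings tried were other pseudocounts, filters, scalings, no trend, a replicate block and leaving out each library.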

Additional observations from a re-analysis of the deposited data

How the results depend on the processing

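The number of features called higher and lower in dbp2null, 66 and 15, was unstable. It was 2 and 6 with a pseudocount of 0.1, 380 and 45 with one of 5, 4 and 9 when features had to average 10 FPKM, 3 and 10 with median centring, 1 and 4 with quantile normalization, 48 and 52 with protein-coding rescaling, 29 and 12 with no trend and 6 and 10 with the replicate block. Leaving out each library gave from 0 to 1073 higher and from 0 to 1439 lower, with a lone library assumed to vary like the other genotype's pair. With filters added after seeing the data, it was 1119 and 79 among features above 0 in every library and 1772 and 334 among those of at least 300 bases. The cause was not tested.

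The labels give replicate numbers but do not say whether same-numbered libraries were handled together, and the values below cannot settle it. Same-numbered libraries deviated with a correlation of -0.115, and the block called 0 of the 10 chaperone genes, as did the fit without it. With crossed numbers, chosen after the data were seen, 2454 features were called higher and 213 lower, among them 4 of the 10 chaperone genes.

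The median log2 fold change of the 10 genes, -1.47, was -1.80 with median centring, -0.32 with quantile normalization and -0.65 with protein-coding rescaling, and from -1.67 to -1.18 with each library left out. SSE1 turned from -1.14 to 0.48 with quantile normalization. Median centring gave family log2 ratios of -2.48 (Ssa), -2.12 (Hsp90) and -1.32 (Hsp110), and protein-coding rescaling -1.32 (Ssa), -0.88 (Ssb), -0.96 (Hsp90) and -0.17 (Hsp110). Quantile normalization, added for sums and ratios after the data were seen, gave -0.72 (Ssa), -0.36 (Ssb), -0.43 (Hsp90) and 0.53 (Hsp110), and differences in log2 paralog ratio of -0.20 (SSA1 to SSA2), 1.23 (SSA4 to SSA2), -0.57 (HSP82 to HSC82), -0.17 (SSB1 to SSB2) and 0.77 (SSE2 to SSE1). With each library left out, the ratios lay from -2.39 to -1.90 (Ssa), from -2.23 to -1.18 (Ssb), from -1.95 to -1.61 (Hsp90) and from -1.12 to -0.86 (Hsp110). With each library left out, these differences lay from 0.31 to 0.37 (SSA1 to SSA2), from 3.18 to 3.82 (SSA4 to SSA2), from 0.32 to 0.88 (HSP82 to HSC82), from -0.17 to -0.01 (SSB1 to SSB2) and from 2.14 to 3.0 (SSE2 to SSE1). Unknown read depth and 2 libraries per genotype limit the precision of all values.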
